A study of Mus musculus with 6 samples.

Results

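5-hydroxymethylcytosine (5hmC) was compared between induced pluripotent stem (iPS) cells and the fibroblasts of the same reprogramming system. The comparison uses every peak of 1 iPS 5hmC library, 174079 peaks, and of 1 fibroblast 5hmC library, 42301 peaks. Together these are 216380 of the 663518 peaks of the series, which has 6 libraries, 1 for each of 3 stages and 2 marks. An iPS peak that shared at least 1 bp with a fibroblast peak is called shared, and one that shared none is called gained. A fibroblast peak is likewise called shared or, where no iPS peak touched it, lost. These words describe 2 peak lists and not the fate of single cytosines.

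The iPS cells were a line at passage 10 to 15 that the labels describe as induced with Tet1, Sox2, Klf4 and c-Myc, and it was grown on feeder fibroblasts in medium with LIF. The fibroblasts were at passage 4 and came from mice made from iPS cells of the same 4-factor system. Both carry the background OG2-GFP/Rosa26-M2rtTA, an Oct4-GFP reporter together with the transactivator that lets doxycycline switch the factors on. The day-3 libraries, from such fibroblasts at passage 4 after 3 days of doxycycline, serve below only as a further readout at these peaks, as do the 5-methylcytosine (5mC) libraries. Each group has 1 library per mark, and the iPS group is 1 line. Passage, medium and feeder cells differ between the groups together with the cell state and cannot be told apart from it. Peak lists hold no expression values, so cell identity is taken from the labels.

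5hmC is made from 5mC by the TET dioxygenases, of which Tet1 is abundant in pluripotent cells. It can be an intermediate on the way to unmodified cytosine or a stable mark. In pluripotent cells it is known from enhancers, gene bodies and promoters with intermediate CpG content, and cultured fibroblasts are known to hold little of it. The antibody captures fragments that carry 5hmC, so a peak marks a stretch of many bases and not a level at 1 cytosine.

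The number of reads behind each library is unknown, and the number of peaks, the covered length and the scores of a list all depend on it. The peaks covered 187 Mb in iPS cells and 35.9 Mb in fibroblasts, a ratio of 5.19. The ratio was 2.02 with equal numbers of best-scoring peaks and 7.21 with scores from 100 upwards. With 1 library per stage there is no replicate error and no test between the stages. The 95% Wilson intervals given with shares cover counting error only, and neighbouring peaks are not independent.

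Between the whole lists, most iPS 5hmC peaks were gained, and most fibroblast peaks were shared. Of the iPS peaks, 84.3% (146693 peaks, interval 84.1 to 84.4) had no fibroblast counterpart, and 15.7% (27386 peaks) were shared. Of the fibroblast peaks, 63.7% (26929 peaks, 63.2 to 64.1) were shared and 36.3% (15372 peaks, 35.9 to 36.8) were lost. In base pairs, 20.2 Mb was covered in both lists. This was 10.8% of the length covered in iPS cells and 56.1% of that covered in fibroblasts. The lengths of the lists, 174079 iPS and 42301 fibroblast peaks, set much of these shares. Matches were almost always between single peaks, so most iPS peaks would count as gained even if every fibroblast peak were shared. With only the 42301 best-scoring iPS peaks, 20.9% of them and 21.3% of the fibroblast peaks were shared.

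Where the lists met, they met at nearly the same place. A shared fibroblast peak had a median of 88.0% of its length inside iPS peaks, and 6966 of them (25.9%) lay wholly inside. The match was almost always 1 peak to 1 peak, which held for 25583 pairs. The centres of these pairs were a median of 99 bp apart, and 74.5% were within 200 bp. The paired peaks had median widths of 882 bp in iPS cells and 857 bp in fibroblasts, and the iPS peak was the wider one in 52.3% of pairs. Of the shared fibroblast peaks, 236 were overlapped by less than 100 bp, and their medians were 770 bp for width and 66.8 for score. A further 300 fibroblast peaks counted as lost had an iPS peak less than 100 bp away, with medians of 771 bp and 67.4. Of the iPS peaks, 13.0% had at least 50% of their length inside fibroblast peaks, against 15.7% from 1 bp. For fibroblast peaks inside iPS peaks these shares were 60.9% and 63.7%.

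The score is the value that the authors' peak caller gave each peak, and it serves here only to rank peaks within 1 list. The share of peaks found in the other list was higher at higher scores in both lists, and the span was wider for fibroblast peaks. Each list was cut into 10 groups of equal size by score. Among iPS peaks, 10.1% of the lowest-scoring group (9.68 to 10.6) and 23.5% of the highest-scoring group (22.9 to 24.2) lay on a fibroblast peak. Among fibroblast peaks, 40.3% of the lowest-scoring group (38.9 to 41.8) and 97.4% of the highest-scoring group (96.9 to 97.8) lay on an iPS peak. The share was higher in each successive group in both lists. Width moved with the score among iPS peaks, as the median width was 683 bp in the lowest-scoring group and 2001 bp in the highest. Counted by whether the centre of the iPS peak lay in a fibroblast peak, the share was 9.47% in the lowest-scoring group, 15.8% in the eighth and 15.1% in the highest.

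**Figure D1:**
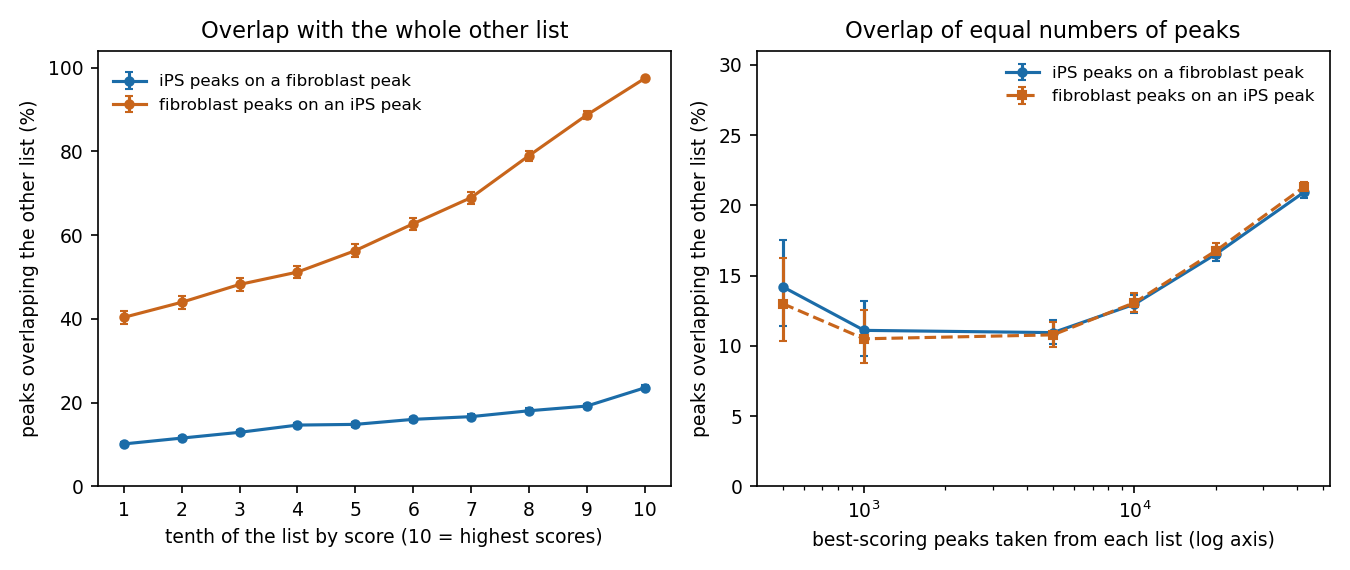
Left, share of peaks that overlap the whole other 5hmC list (%) for 10 groups of equal size by score, with 95% Wilson intervals, for iPS peaks (blue) and fibroblast peaks (orange). Right, the same share when only equal numbers of best-scoring peaks of each list are compared (log axis), where both curves lie near 11% at 1000 and 5000 peaks and near 21% at 42301.

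The fibroblast peaks with the highest scores were almost all in the iPS list, but mostly not among an equally small number of the best iPS peaks. Of the 1000 best fibroblast peaks, 991 overlapped an iPS peak. The lists cut to their 1000 best peaks had only 105 of these fibroblast peaks on an iPS peak, which is 10.5% (8.75 to 12.6). In the other direction 11.1% of the 1000 best iPS peaks lay on 1 of the 1000 best fibroblast peaks. With 5000 peaks of each list, 10.9% of the iPS peaks lay on fibroblast peaks, and 10.8% of the fibroblast peaks lay on iPS peaks. With all 42301 fibroblast peaks and as many of the best iPS peaks, these shares were 20.9% and 21.3%. The lowest scores kept in that last set were 187.58 for iPS cells and 50.01 for fibroblasts. Against the whole fibroblast list, 320 of the 1000 best iPS peaks (32.0%) lay on any fibroblast peak. That list is the shorter one, with 42301 against 174079 peaks, so it offers fewer peaks to meet. How far this accounts for the lower share than that of the best fibroblast peaks was not tested.

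The rank of the iPS partners describes the best fibroblast peaks in another way. The 1000 best fibroblast peaks formed 880 exclusive pairs, and their iPS partners had a median score of 420, with 5.71% of the iPS list scoring higher than the median partner. Of these partners 70.8% were in the best 10% of the iPS list. For the 4230 best fibroblast peaks 34.8% of the partners were in the best 10%, and for all 25583 pairs 14.4% were. Over all pairs, the scores had a Spearman correlation of 0.32 and the widths one of 0.26. These are descriptions across sites that share their CpG content and their mappability, and the pairs are not independent.

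Over all scores, shared and gained iPS peaks had similar widths, whereas lost fibroblast peaks were narrower and had lower scores than shared ones. Median widths were 909 bp for gained and 887 bp for shared iPS peaks, and 747 bp for lost and 859 bp for shared fibroblast peaks. At like score, shared iPS peaks were narrower than gained ones in each score group. Their medians were 656.5 bp against 684 bp in the lowest-scoring group, 919 bp against 1050 bp in the seventh and 1910 bp against 2023 bp in the highest. Median scores were 103 for gained and 127 for shared iPS peaks, and 68.4 for lost and 106 for shared fibroblast peaks. Scores of at least 100 were reached by 51.5% of gained and 62.4% of shared iPS peaks. Among fibroblast peaks, 18.98% of the lost and 53.4% of the shared ones reached that score.

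Gained peaks lay closer to other iPS peaks, gained or shared, than to fibroblast peaks. A gained peak was a median of 12.2 kb from the nearest fibroblast peak and 1.20 kb from the nearest other iPS peak. Only 6.29% of gained peaks had a fibroblast peak within 1 kb, and 44.0% had one within 10 kb. The iPS list is the longer one, which by itself shortens distances to it. Gained peaks also touch no fibroblast peak by definition, so part of this contrast is set by the sorting. When iPS peaks within 1000 bp of each other were joined into domains, 54.5% of gained peaks stood alone, 37.3% shared a domain with other gained peaks only, and 8.16% shared one with a shared peak. Domains of 5 or more peaks numbered 1453 in iPS cells and 9 in fibroblasts. Of the 1453, 654 (45.01%) held a shared peak. Shared peaks were 15.7% of all iPS peaks, and a domain of many peaks holds one more easily, so this share is a count only. Of the shared iPS peaks, 63.6% stood alone in their domain.

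Lost peaks were more isolated. A lost fibroblast peak was a median of 14.3 kb from the nearest other fibroblast peak, and a shared one 9.89 kb. Its nearest iPS peak was a median of 4.86 kb away, and for 7.48% of lost peaks (1150 peaks) it was more than 100 kb away. Gained peaks lay more than 100 kb from any fibroblast peak in 2.47% of cases.

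The 5mC lists, which took no part in sorting the peaks, separated the classes. Lost fibroblast peaks seldom coincided with 5mC. Of the lost peaks 12.1% (11.6 to 12.6) lay on a fibroblast 5mC peak, against 35.8% (35.2 to 36.3) of the shared fibroblast peaks. For the iPS 5mC list, the shares were 11.3% (10.8 to 11.8) of lost and 32.3% (31.8 to 32.9) of shared fibroblast peaks. Day-3 5mC lay on 22.3% of lost and 52.4% of shared ones, and day-3 5hmC on 18.2% and 46.0% of the same classes. Lost peaks had the lower scores, and at like score shared peaks still had the higher share, in each of the 10 score groups and for each of these 4 lists. The gap in fibroblast 5mC was between 10.6 and 25.9 percentage points over these groups. In all, 81.7% of lost peaks were on no 5mC peak of either stage, against 52.5% of shared fibroblast peaks.

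Gained and shared iPS peaks differed in their overlap with the fibroblast and the iPS 5mC lists. Fibroblast 5mC lay on 40.4% of gained peaks (40.1 to 40.6) and 37.4% of shared iPS peaks (36.9 to 38.0). For iPS 5mC the order was the opposite, with 21.6% of gained (21.4 to 21.8) and 33.6% of shared iPS peaks (33.1 to 34.2). Gained peaks had the higher fibroblast 5mC share and the lower iPS 5mC share in each of 10 groups of iPS peaks by score. The gap in fibroblast 5mC was between 1.33 and 12.1 percentage points over these groups. It turned when peaks within 1000 bp were joined, at 43.2% of gained and 43.9% of shared iPS regions. The gap in iPS 5mC kept its direction under all 6 settings listed at the end. Day-3 5mC lay on 54.1% of gained and 53.8% of shared iPS peaks, with overlapping intervals, and this order turned on joining as well. At like score the shared peaks had the higher day-3 5mC share in 1 of the 10 groups. Day-3 5hmC was found at 30.3% of gained and 46.5% of shared iPS peaks.

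Seen together, the 5mC lists divide the gained peaks into 4 states. A 5mC peak was present in fibroblasts and absent from the iPS list at 23.0% of gained peaks (33803 peaks), against 15.3% of shared iPS peaks. A 5mC peak of the iPS list alone was found at 4.23% of gained and 11.5% of shared iPS peaks. Both lists had one at 17.3% of gained and 22.2% of shared iPS peaks. No 5mC peak of either stage was found at 55.4% of gained and 51.1% of shared iPS peaks. Among peaks with fibroblast 5mC, the iPS list had no 5mC peak at 57.1% of the gained ones (56.7 to 57.4) and at 40.8% of the shared ones (39.8 to 41.7). The iPS 5mC list is shorter than the fibroblast one, at 61171 against 104011 peaks, which lowers the iPS 5mC share of both classes. Gained peaks on 5mC of both stages were the widest and highest-scoring, with medians of 1162 bp and a score of 184. Those on no 5mC peak had medians of 832 bp and a score of 83.5. Overlap was counted from 1 bp, so a wider peak meets a 5mC peak more easily, and width moved with the score.

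**Figure D2:**
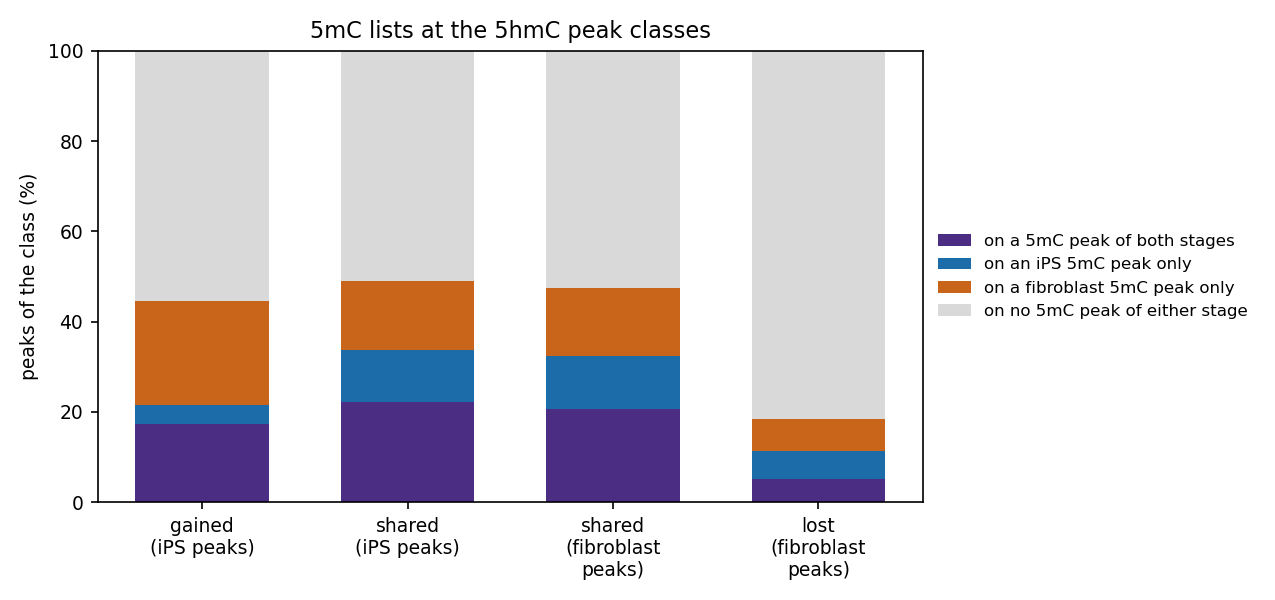
Share of 5hmC peaks (%) in each class that lie on 5mC peaks of both stages, of iPS cells only, of fibroblasts only, or of neither. Lost fibroblast peaks are on no 5mC peak in 81.7% of cases, and gained iPS peaks have the largest part with fibroblast 5mC only, at 23.0%.

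5mC was concentrated at the centre of the 5hmC peaks of every class. The iPS 5mC list covered 17.7% of the centres of gained peaks and 28.8% of those of shared iPS peaks, against 6.48% and 7.04% of the positions 1 kb away. The fibroblast 5mC list covered 36.4% of gained centres and 32.6% of shared iPS centres, against 11.9% and 11.3% at 1 kb. At lost peaks the iPS 5mC list covered 10.4% of centres and 2.70% of positions 1 kb away, and the fibroblast 5mC list covered 9.95% and 5.13%.

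**Figure D3:**
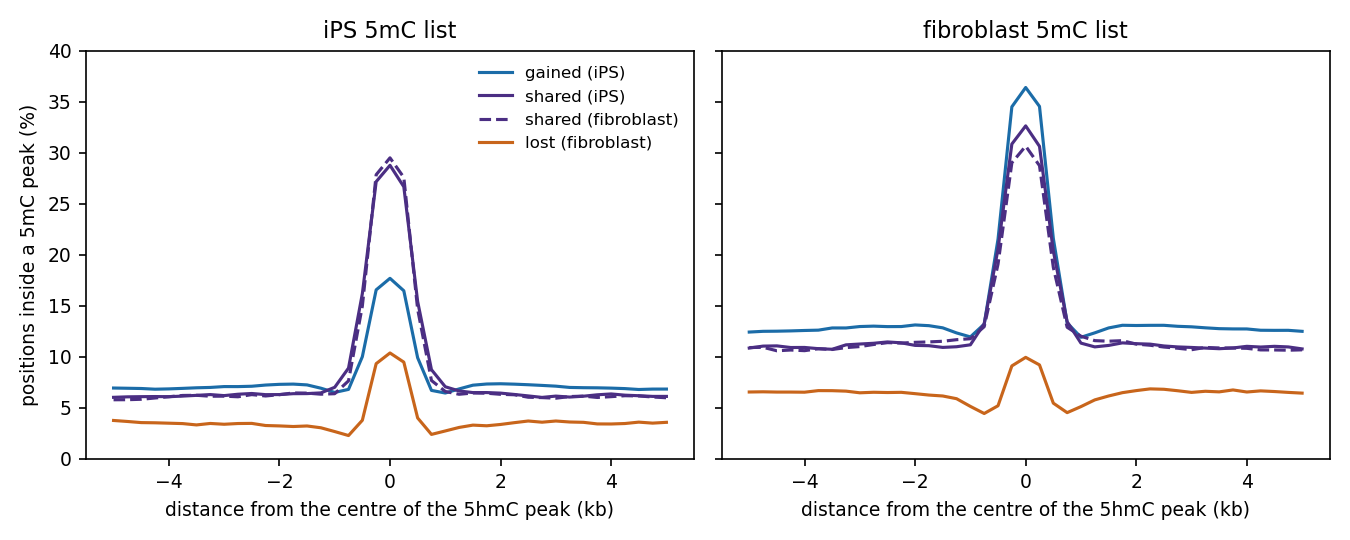
Share of positions inside a 5mC peak (%) by distance from the centre of the 5hmC peak (kb), for the iPS 5mC list (left) and the fibroblast 5mC list (right), with 1 line per class of 5hmC peaks. In the left panel shared peaks have the highest centres, near 29%, in the right panel gained peaks do, at 36.4%, and lost peaks are lowest in both.

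The genome was also divided into windows of 100 kb. Either 5hmC list covered part of 19507 windows, of which 14352 held both, 3446 (17.7%) held iPS 5hmC only, and 1709 (8.76%) held fibroblast 5hmC only. Covered length was at least 2 times as great in iPS cells in 68.3% of windows and at least 2 times as great in fibroblasts in 11.9%. In windows with both, the median ratio of iPS over fibroblast covered length was 3.89.

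The length covered by iPS 5hmC in a window was graded with the fibroblast 5mC there. Only the 19507 windows with 5hmC in either list were grouped. A window without fibroblast 5mC therefore entered only by holding 5hmC, and its covered length is partly set by this choice. In such windows without fibroblast 5mC the median covered length was 0.619 kb of iPS 5hmC and 0.709 kb of fibroblast 5hmC. In windows with 5 to 10 kb of fibroblast 5mC it was 12.4 kb of iPS 5hmC and 2.01 kb of fibroblast 5hmC. In the 916 windows with 20 kb or more it was 34.8 kb of iPS 5hmC (quartiles 27.9 and 42.3) and 3.72 kb of fibroblast 5hmC. Over the 19507 windows, the Spearman correlation with fibroblast 5mC was 0.88 for iPS 5hmC and 0.52 for fibroblast 5hmC, and iPS and fibroblast 5hmC had one of 0.53 with each other. Between iPS 5hmC and iPS 5mC it was 0.84, so the grading was not with fibroblast 5mC alone. With only the 42301 best iPS peaks, the correlations were 0.83 with fibroblast 5mC and 0.50 with fibroblast 5hmC. Windows share CpG content, gene density and mappable length across the lists, so these values describe where the lists are dense and no more.

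**Figure D4:**
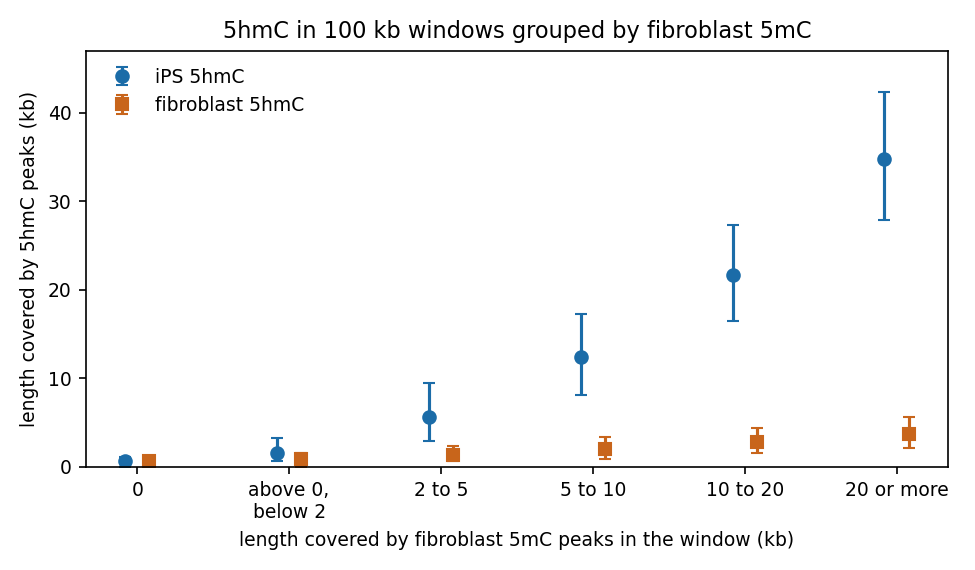
Length covered by 5hmC peaks (kb) in 100 kb windows grouped by the length that fibroblast 5mC peaks cover there, as medians with quartiles, for iPS 5hmC (blue circles) and fibroblast 5hmC (orange squares). Only windows with 5hmC in either list are included. The iPS median is 0.619 kb in windows without fibroblast 5mC and 34.8 kb in those with 20 kb or more, and the fibroblast medians are 0.709 kb and 3.72 kb in the same groups.

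Lists of equal length gave a different count of windows. The 42301 best iPS peaks were wider than the fibroblast peaks, with medians of 1540 bp and 815 bp, and they lay in fewer windows, 10316 against 16061. More iPS than fibroblast 5hmC was then found in 7933 windows and less in 9171, which makes 46.4% with more among the differing windows. With the whole lists this figure was 79.3%. The windows with most 5hmC, 1950 in each case, held 51.0% of the covered length of the best iPS peaks and 33.9% of that of the fibroblast peaks. For the whole iPS list this share was 35.5%.

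The surroundings of the classes are given for 100 kb windows. A window around a gained or shared peak holds an iPS peak by definition, so its iPS 5hmC is a description only. The 100 kb window around a gained peak had a median of 18.95 kb of iPS 5hmC and 9.72 kb of fibroblast 5mC. Around a shared fibroblast peak these medians were 15.8 kb and 8.51 kb, and around a lost one they were 6.52 kb and 4.27 kb. Of the lost peaks 17.2% lay in windows without fibroblast 5mC and 13.8% in windows without any iPS 5hmC. Windows without fibroblast 5mC held 6.59% of shared fibroblast peaks and 2.50% of gained peaks.

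Stretches between neighbouring fibroblast peaks show where iPS peaks were many. Of 42279 such stretches, 4363 held 10 or more whole iPS peaks and 972 held 20 or more. The fullest was on chromosome 3 from 129214906 to 129486792, where 72 iPS peaks lay in 272 kb without fibroblast 5hmC. There the fibroblast list had 34 5mC peaks over 35.3 kb, and the iPS list had 8 over 7.21 kb. Next came chromosome 19 from 46829088 to 47085592 with 67 iPS peaks, and chromosome 2 from 76410092 to 76766356 with 66. In the chromosome 19 stretch 5mC covered 18.4 kb in iPS cells and 24.5 kb in fibroblasts. In the chromosome 2 stretch it covered 74.3 kb in iPS cells and 76.5 kb in fibroblasts. Coordinates are on mm9, and these regions were not assigned to genes.

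Of 174057 stretches between neighbouring iPS peaks, 6 held 10 or more fibroblast peaks. The length of the lists sets much of this contrast, and with the 42301 best peaks of each list its direction turned. Then 463 stretches between iPS peaks held 10 or more fibroblast peaks, and 264 stretches between fibroblast peaks held 10 or more iPS peaks, an alternative chosen after seeing the data. In the whole lists, the fullest was on chromosome X from 51061322 to 53586766, where 19 whole fibroblast peaks lay in 2525 kb without iPS 5hmC. Day-3 5hmC peaks numbered 4 there, and 5mC peaks numbered 11 in iPS cells and 21 in fibroblasts. The next lay on chromosome X from 140790117 to 147435978, with 12 fibroblast peaks, and on chromosome 2 from 94792628 to 96948327, with 11. A pick by count favours long stretches, and these 3 were not dense in fibroblast 5hmC. They held 0.752, 0.181 and 0.510 fibroblast peaks per 100 kb. The 3 fullest stretches between fibroblast peaks held 26.5, 26.1 and 18.5 iPS peaks per 100 kb.

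The 5 gained peaks picked by score were broad and lay on 5mC of both stages. Both traits were common at high scores. Gained peaks in the highest-scoring group had a median width of 2023 bp, with fibroblast 5mC on 83.4% and iPS 5mC on 54.7%. The recurring score of 3100 was shared by 45 iPS peaks, 14 of them gained, and only 6 iPS peaks scored higher. It looks like a ceiling value, so the order of peaks at and above it may not follow their strength. The last 2 of the 5 were taken from this tie by position. The first, on chromosome 2 from 76546812 to 76551159, was 4.35 kb wide and had the highest score value in the iPS list. It lay 137 kb from the nearest fibroblast 5hmC peak and had no day-3 5hmC. 5mC peaks covered 4.12 kb of it in iPS cells and 4.08 kb in fibroblasts. The others were on chromosome 8 from 125415054 to 125421614 and on chromosome 4 from 137103782 to 137111246, from 132616467 to 132623392 and from 133415347 to 133421188. These 4 had day-3 5hmC over 1.42 to 4.96 kb and fibroblast 5mC over 5.46 to 6.92 kb of their length. The widest iPS peak, on chromosome 4 from 141017948 to 141035953, spanned 18006 bp. It was gained as well, with 11.9 kb of 5mC in iPS cells and 16.7 kb in fibroblasts. The next widest were on chromosome 5 from 114810132 to 114824293, which held 1 fibroblast peak of 0.995 kb, and from 115991826 to 116005613, which held none.

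The best-scoring lost peaks also lay on 5mC of both stages, unlike most lost peaks. The first was on chromosome X from 120115635 to 120119998 and ranked 74 in the fibroblast list, with 3.95 kb of 5mC in iPS cells and 3.98 kb in fibroblasts. The others were on chromosome 17 from 13743040 to 13746193, chromosome 4 from 3007044 to 3011855, chromosome Y from 1751356 to 1753167 and chromosome X from 121302842 to 121304010. The chromosome 17 peak had an iPS 5hmC peak 1.69 kb away, and the last one had an iPS peak only 0.300 kb away. Of these 5 lost peaks, picked by score, 3 were on the sex chromosomes. Of all fibroblast peaks, 0.70% were on X and 0.17% on Y. These shares are not the background of the pick, as X held a larger part of the high-scoring lost peaks. In the highest-scoring group 110 fibroblast peaks were lost. There 26 of 37 peaks on X were shared, against 4074 of 4161 on autosomes.

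The sex chromosomes lay outside the range of the autosomes. On single autosomes the iPS list had 3.54 (chromosome 7) to 5.28 times (chromosome 19) as many peaks as the fibroblast list. The gained share of iPS peaks was 81.9% on chromosome 7 and 87.5% on chromosome 19, the lowest and the highest autosome. The shared part of fibroblast peaks was lowest on chromosome 1, at 58.5% (56.6 to 60.2), and highest on chromosome 11, at 67.7% (65.9 to 69.5). The autosome with the fewest peaks in either list, chromosome 19, had 5541 iPS and 1050 fibroblast peaks. On chromosome X both lists were sparse, with 422 iPS peaks (0.24% of the list) and 297 fibroblast peaks (0.70%), a ratio of 1.42. There 74.2% of the iPS peaks (69.8 to 78.1) were gained and 37.7% of the fibroblast peaks (32.4 to 43.3) were shared. The shared part on X was also lower among fibroblast peaks of like score, at 70.3% of 37 peaks (54.2 to 82.5) in the highest-scoring group, against 97.9% of 4161 autosomal peaks (97.4 to 98.3). Chromosome Y had 39 iPS and 70 fibroblast peaks. Of these, 9 iPS peaks (23.1%) were gained and 21 fibroblast peaks (30.0%, interval 20.5 to 41.5) were shared.

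**Figure D5:**
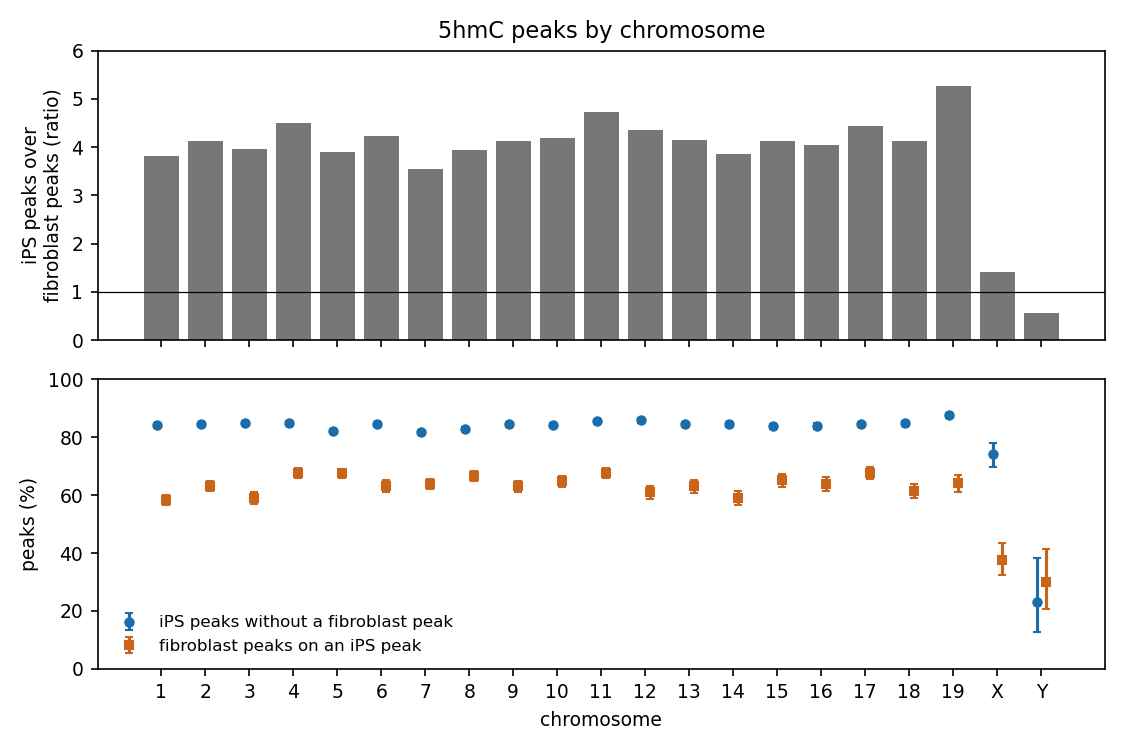
Top, number of iPS 5hmC peaks divided by that of fibroblast 5hmC peaks on each chromosome, with a line at a ratio of 1. Bottom, share of iPS peaks without a fibroblast peak (blue circles) and of fibroblast peaks on an iPS peak (orange squares), in % with 95% Wilson intervals, where the autosomes lie close together and chromosomes X and Y lie below them in both shares.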

How the data were processed

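DNA captured with an antibody against 5hmC or 5mC was sequenced. Per the labels' protocols, adapters were ligated before the capture, 500 ng entered each reaction, 14 to 16 cycles of amplification followed, and fragments of 300 to 500 bp were selected. Per the submitters' processing notes, the build was mm9 and the tools were Bowtie 0.12.7, MACS 1.4.1 and CASAVA 1.8. Each deposited file is the peak list of 1 library, with a score per peak that the authors' peak caller gave. Not given in the sources used here are the caller's settings, any control library, the handling of duplicate reads and the depth.

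Libraries were grouped by title. Overlap was counted from 1 bp with numpy 2.4.6 and pandas 2.3.3 in Python 3.11.15, tested on simulated data with 0 of 60000 peaks placed wrongly in each of 3 runs, and checked against bedtools 2.31.1 on 30 ordered list pairs with 0 differences. Correlations used scipy 1.17.1 and plots matplotlib 3.10.9. Ties in score at the end of a best-scoring set went to the earlier position. Starts in the files count from 0 and are printed from 1.

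The regions named are the 5 best-scoring gained and lost peaks off chromosome 18, the 3 widest iPS peaks, the 3 fullest stretches of either kind and the autosomes at the ends of each range. The comparison and these rules were chosen with earlier results of these data known. The genes supplied for naming are placed on a newer build than mm9, so peaks were not assigned to genes and the planned gene lists were not used. No sequence of mm9 was used here. Alternatives were scores from 100 upwards, peaks covered to 50%, the centre inside, equal numbers of best-scoring peaks, joining within 1000 bp, autosomes only, and windows of 10 kb or 1 Mb.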

Additional observations from a re-analysis of the deposited data

How the results depend on the processing

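With peaks scoring from 100 upwards in all lists, 11.5% of iPS peaks lay on fibroblast peaks and 60.8% of fibroblast peaks on iPS peaks, the covered length was 7.21 times as great in iPS cells, and 84.7% of windows had more. Fibroblast 5mC then lay on 33.8% of gained and 26.9% of shared iPS peaks, and iPS 5mC on 6.57% of lost peaks. With an overlap of 50%, these shares were 13.0% and 60.9%, and fibroblast 5mC lay on 36.1% of gained and 28.7% of shared iPS peaks. By peak centres they were 13.6%, 61.4%, 36.7% and 30.4%. After cutting the iPS list to its 42301 best peaks, 20.9% of iPS peaks and 21.3% of fibroblast peaks overlapped, the covered length was 2.02 times as great in iPS cells, and the share of windows with more turned to 46.4%. Fibroblast 5mC then lay on 70.7% of gained and 62.7% of shared iPS peaks, and iPS 5mC on 17.6% of lost peaks. Here most fibroblast peaks count as lost because the iPS list was shortened. Joining within 1000 bp gave 19.9% and 64.2%, a covered length 5.61 times as great, and fibroblast 5mC on 43.2% of gained and 43.9% of shared iPS regions. With autosomes only the covered length was 5.24 times as great. The count of stretches with 10 or more peaks of the other list, an alternative chosen after seeing the data, also turned with equal numbers. It was 264 between fibroblast peaks and 463 between iPS peaks, against 4363 and 6 with the whole lists. Windows of 10 kb and 1 Mb gave 83.9% and 81.9% with more. The cause was not tested for any of these changes. Under all 6 settings of scores, overlap, list length, joining and chromosomes, shared fibroblast peaks lay more often than lost ones on each of the 3 5mC lists and on day-3 5hmC. No paired analysis was possible because each group has 1 library. The unknown depth limits every count of peaks, since a peak missing from a list may be below its depth.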
